A study of Mus musculus with 237 samples.

Results

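Lin28a, Lin28b, Igf2bp1, Igf2bp2, Igf2bp3 and Hmga2 were followed in single cells of the mouse embryonic kidney. The 6 genes were taken by symbol from the deposited expression table, in which each matched 1 of 36186 gene entries. Kidneys had been digested to single cells, the wanted cells were sorted, and a Fluidigm C1 device captured them one by one, so that each sample is 1 cell. The groups, all of mixed strain, were 44 Pax2 mutant cap mesenchyme cells of E18.5 (E counts days of embryonic age), 71 wild-type interstitial cells of E18.5, 74 wild-type cap mesenchyme cells and their derivatives of E18.5, 29 Pax2 mutant cap mesenchyme cells of E13.5, and 18 wild-type cap mesenchyme cells and their derivatives of E13.5. Cap mesenchyme holds the nephron progenitors, interstitium is the stroma around them, and Pax2 is a transcription factor that progenitors need. The titles of the interstitial cells carry the name FoxD1 GCE. Those of the E18.5 cap cells say CTRL and those of the E13.5 cap cells WT, and both groups are labelled wild type. The Pax2 allele, the driver of any Cre and the gate of the sort are not given in the labels.

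These genes belong to a circuit that times development. LIN28 proteins bind the precursors of the let-7 microRNAs and block their maturation. Mature let-7 represses messages that carry matches to its seed, among them those of Lin28, Hmga2 and the Igf2bp genes. HMGA2 is a chromatin protein that binds AT-rich DNA, and the 3 IGF2BP proteins bind messages such as Igf2 and affect their stability, transport and translation. In many tissues the genes are high in the early embryo and low later on, and in the mouse kidney overexpressed Lin28b is known to lengthen the period in which nephrons form.

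The let-7 sequences and their matches in the messages of the 6 genes are shown because the matches are what the members share outside the expression values. RefSeq (GRCm38.p6) gave 9 mature microRNAs of the family with the same seed, GAGGUAG, at bases 2 to 8. In 4 of them, printed 5′ to 3′, capitals mark the seed.

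let-7a: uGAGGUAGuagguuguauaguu
let-7d: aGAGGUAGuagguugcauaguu
let-7g: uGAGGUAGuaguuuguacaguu
miR-98: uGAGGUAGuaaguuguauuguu

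The complement of the seed, CTACCTC, was searched on the message strand of the 3′ UTR of 1 principal GENCODE M21 transcript per gene (GRCm38, the same assembly as mm10). It was found in all 6 genes, with 2 matches in Lin28a, 4 in Lin28b, 4 in Igf2bp1, 1 in Igf2bp2, 1 in Igf2bp3 and 4 in Hmga2. Of all 16364 UTRs searched, 8.23% held it, and of UTRs within 20% of each member's length the share ran between 12.1% beside Igf2bp2 and 34.9% beside Igf2bp1. The 6 genes had been picked as a let-7 circuit, so that the matches are a description. One match of each gene is printed as DNA of the message strand with capitals on the motif. All lie on the minus strand of the genome, in the 3′ UTR.

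Lin28a: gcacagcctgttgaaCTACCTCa
Lin28b: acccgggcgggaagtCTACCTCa
Igf2bp1: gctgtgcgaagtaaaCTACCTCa
Igf2bp2: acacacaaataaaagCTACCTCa
Igf2bp3: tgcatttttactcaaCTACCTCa
Hmga2: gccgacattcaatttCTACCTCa

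The Lin28a stretch lies at chr4:134005189-134005211, the Lin28b stretch at chr10:45381022-45381044 and the Igf2bp1 stretch at chr11:95961778-95961800. Those of Igf2bp2, Igf2bp3 and Hmga2 lie at chr16:22059473-22059495, chr6:49086787-49086809 and chr10:120364224-120364246. The stretches printed are the first match of each gene, and in each the motif is followed by A. That holds for 2 of 2 matches in Lin28a and 3 of 4 in Igf2bp1, but for 1 of 4 in Lin28b and 1 of 4 in Hmga2. The Hmga2 match begins 21 bases after the stop codon, and Hmga2 has 3 further matches, at 1258, 1696 and 2554 bases, none of them followed by A.

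The values are RPKM, read numbers corrected for transcript length and sequencing yield, and levels below are means of log2(RPKM + 1) with the SD between cells. Detection means 1 RPKM or more in a cell. The 95% intervals on shares of cells are exact (Clopper-Pearson) and reflect counting error alone. No label names an embryo, so the cells of a group count as 1 sample, no test was possible, and no difference below has a replicate check. The differences are set beside the SD between cells, and a difference of 1 log2 unit or more is counted against the share of all gene entries that moved as far. Fold changes are on the log2(RPKM + 1) scale, which understates changes of low genes.

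The groups differed in more than age and genotype. Median numbers of genes detected per cell were 3643 in E18.5 mutant cells, 5178 in E18.5 interstitium, 5210.5 in E18.5 cap, 4560 in E13.5 mutant and 5566 in E13.5 cap cells. Each group has a date of its own in its titles, and the pool numbers in the titles also differ: pool 4 for E18.5 mutant cells, pools 2 and 3 for interstitium, pool 2 for E18.5 cap and pool 3 for both younger groups. Xist without Y-linked transcripts was found in 42 of 44 E18.5 mutant, 67 of 74 E18.5 cap and, at E13.5, 27 of 29 mutant cells, whereas Y-linked transcripts alone marked 70 of 71 interstitial and 17 of 18 E13.5 cap cells. The age comparison in cap cells thus also sets cells with Xist against cells with Y-linked transcripts, while the age comparison in mutant cells sets cells with Xist on both sides. Date and pool, and in cap cells sex, cannot be told apart from age, nor can date, and at E18.5 pool, from genotype. Mutant and cap cells of E13.5, and interstitial and cap cells of E18.5, also differ in these sex-linked transcripts.

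Labels were checked on marker genes. Pax2 was detected in 0 of 44 E18.5 mutant and 56 of 74 E18.5 cap cells, and in 17 of 29 E13.5 mutant and 15 of 18 E13.5 cap cells, so Pax2 RNA was seen in most of the E13.5 cells labelled mutant. Which allele gave it cannot be told, and these cells are called mutant below as labelled. Six2, the defining transcription factor of nephron progenitors, was detected in 1 of 44 E18.5 mutant, 19 of 71 interstitial, 62 of 74 E18.5 cap, 9 of 29 E13.5 mutant and 14 of 18 E13.5 cap cells. The other listed progenitor markers did not all follow it. Interstitium minus E18.5 cap was -4.15 for Crym, -3.26 for Eya1, -2.03 for Osr1, -1.32 for Sall1 and -1.24 for Cited1. It was 0.11 for Meox1 and 0.78 for Gdnf. In mutant minus cap they ran from -5.39 (Crym) to -0.12 (Meox1) at E18.5. At E13.5 they ran from -4.95 (Sall1) to -0.67 (Cited1). The mean score over 8 stromal markers was 5.03 in E18.5 mutant, 4.34 in interstitial, 0.79 in E18.5 cap, 1.90 in E13.5 mutant and 1.33 in E13.5 cap cells. The score of E18.5 mutant cells thus lay above that of interstitial cells, although they are labelled cap mesenchyme. Meis1 and Pdgfrb alone were lower in E18.5 mutant than in interstitial cells (6.96 against 7.08 and 1.26 against 2.22). Cell type therefore cannot be told apart from age in mutant cells, nor from genotype at E18.5. Markers of ureteric epithelium, endothelium, immune cells, erythroid cells and podocytes had mean scores of 0.48 or less in every group. These means can hide cells that hold a marker. Krt18 was detected in 16 of 71 interstitial cells, up to 256 RPKM. Cdh5 and Tek were each detected in 9 of 71 interstitial cells, and Cd68 in 9 of 74 E18.5 cap cells. Krt8 and Krt18 were each detected in 2 of 29 E13.5 mutant cells, up to 308 and 761 RPKM. Tyrobp and Fcer1g were each detected in 2 of 44 E18.5 mutant cells, up to 7285 and 2474 RPKM. Kdr stood at 284 RPKM in 1 of 18 E13.5 cap cells. The podocyte gene Nphs1 was detected in 62.1% to 86.4% of cells by group, at medians of 1.66 RPKM or less.

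**Figure D1:**
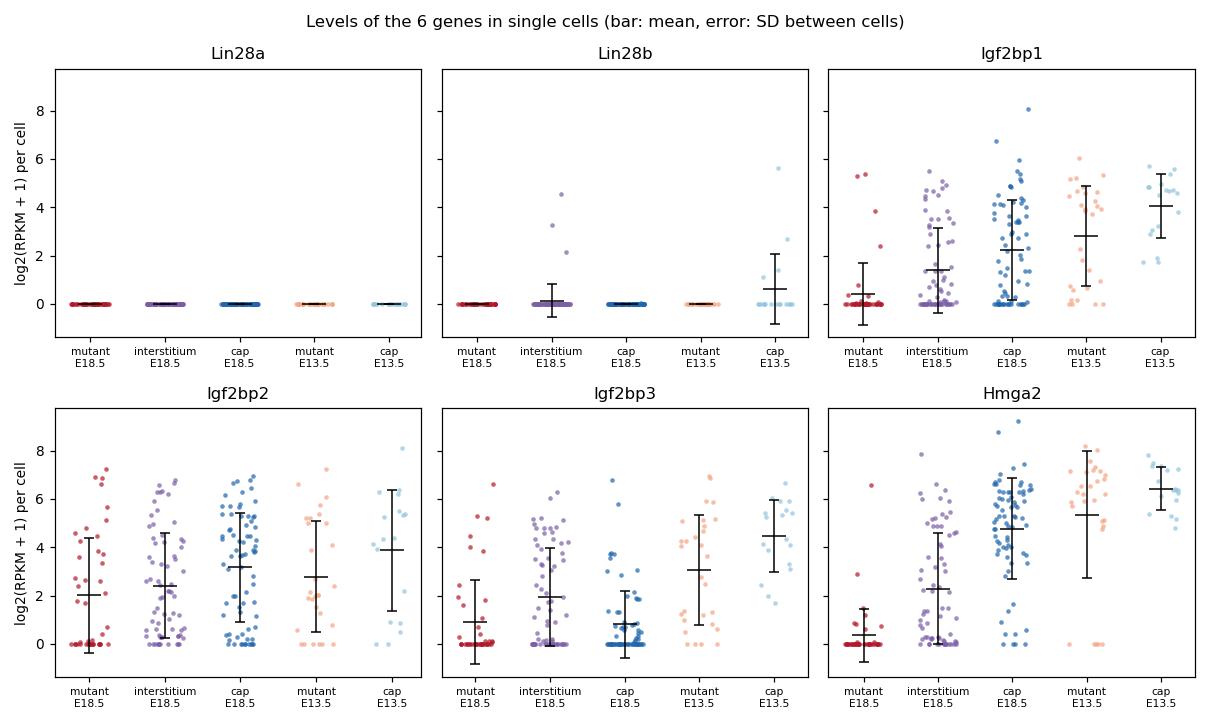
Level of each of the 6 genes in single cells, as log2(RPKM + 1), by group. Points are cells, bars are means and error bars are SD between cells. Hmga2 is under 1 RPKM in 40 of 44 E18.5 mutant cells, and Igf2bp3 in 57 of 74 E18.5 cap cells.

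Of the pathway's upper tier, Lin28a was not seen. The Lin28a entry (chr4:134003330-134018816) stood at 0 in all cells of the 5 groups. A count of 0, taken as up to 3 cells of a group's total rather than as the exact interval, allows shares of up to 6.82% of E18.5 mutant, 4.23% of interstitial, 4.05% of E18.5 cap, 10.3% of E13.5 mutant and 16.7% of E13.5 cap cells. This limits cells with 1 RPKM of Lin28a, not cells that express it, because depth is unknown.

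Lin28b (chr10:45376619-45486395), the paralogue, was detected in 7 of the grouped cells. It reached 1 RPKM in none of the 44 E18.5 mutant, 74 E18.5 cap or 29 E13.5 mutant cells, although 1 E18.5 cap cell held 0.0375 RPKM. In interstitium 3 of 71 cells held it (4.23%, interval 0.88% to 11.9%), at 22.1, 8.53 and 3.39 RPKM. In E13.5 cap cells 4 of 18 held it (22.2%, interval 6.41% to 47.6%), at 48.5, 5.43, 1.67 and 1.14 RPKM. The E18.5 minus E13.5 difference in cap cells was -0.60 log2 units and rested on these 4 cells. The other 14 E13.5 cap cells stood at 0.

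Igf2bp3 (chr6:49085218-49214954) separated the ages of cap cells most clearly among the 6. It was detected in 17 of 74 E18.5 cap cells (23%, interval 14% to 34.2%) and in 18 of 18 E13.5 cap cells (interval 81.5% to 100%). The E18.5 cap cells ran from 0 to 108 RPKM with a median of 0, and the E13.5 cap cells from 2.24 to 100.1 RPKM with a median of 28.3. The groups overlap: 14 of 74 E18.5 cells stood at or above the lowest E13.5 cell. The mean was 0.80 ± 1.40 at E18.5 and 4.47 ± 1.49 at E13.5 (SD between cells), a difference of -3.66 log2 units or -2.54 pooled SDs.

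Among 11423 entries at 1 RPKM or more in 10% of either group's cells, this difference was rank 4 from the bottom, behind Ddx3y (-4.01), Meis1 (-3.97) and Cdc34 (-3.77). Ddx3y is Y-linked, and the E18.5 cap cells are those with Xist. Restricted to cells with Six2, the difference was -3.45 (14 of 62 E18.5 and 14 of 14 E13.5 cells with Igf2bp3).

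The same gene was also lower with age in mutant cells, where its SDs were wider. E18.5 mutant cells averaged 0.91 ± 1.74, with 11 of 44 cells detected (25%), and E13.5 mutant cells 3.05 ± 2.27, with 21 of 29 (72.4%). The difference was -2.14, or -1.06 pooled SDs, rank 136 from the bottom of 10872 entries. At E18.5, where it was low in both, mutant minus cap was 0.11. In interstitium the gene was detected in 37 of 71 cells (52.1%, interval 39.9% to 64.1%), the highest share among E18.5 groups, with a mean of 1.94 ± 2.03 against 0.80 ± 1.40 in cap cells. That difference of 1.13, 0.65 pooled SDs, was 1.04 within pool 2 (22 interstitial and 74 cap cells).

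Igf2bp1 (chr11:95957164-96005944) followed a shallower course. It was detected in 44 of 74 E18.5 cap cells (59.5%, interval 47.4% to 70.7%) and in 18 of 18 E13.5 cap cells. Values ran from 0 to 270.1 RPKM with a median of 2.85 at E18.5, and from 2.29 to 50.9 RPKM with a median of 23.7 at E13.5. The E13.5 range lies wholly within the E18.5 one. Means were 2.22 ± 2.07 at E18.5 and 4.05 ± 1.31 at E13.5, a difference of -1.83 or -1.06 pooled SDs. Taken as the log2 ratio of group mean RPKM, to which the few highest cells add most, it was -0.65.

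In mutant cells Igf2bp1 was detected in 4 of 44 at E18.5 (9.09%, interval 2.53% to 21.7%) and 19 of 29 at E13.5 (65.5%). The mean was 0.43 ± 1.28 at E18.5 and 2.81 ± 2.08 at E13.5, a difference of -2.39 or -1.38 pooled SDs. Mutant minus cap was -1.79 at E18.5 and -1.24 at E13.5. At E18.5 the value was -0.93 among cells with 3000 to 5000 genes (33 mutant, 26 cap) and -0.44 among cells with Top2a, a mitosis gene, under 1 RPKM (42 mutant, 11 cap), so its size differed with the genes and the Top2a of the cells compared.

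Igf2bp2 (chr16:22059009-22163299) had the most even level of the 4 Igf2bp and Hmga2 genes. Its share of cells was 47.7% in E18.5 mutant, 62% in interstitial, 74.3% in E18.5 cap, 72.4% in E13.5 mutant and 72.2% in E13.5 cap cells, and these intervals overlap. E18.5 minus E13.5 was -0.70 in cap cells and -0.77 in mutant cells, or -0.29 and -0.33 pooled SDs, with 0 to 121 RPKM in E18.5 cap and 0 to 272 RPKM in E13.5 cap cells. It was the only member of the 4 detectable Igf2bp and Hmga2 genes in 13 of 44 E18.5 mutant cells. E18.5 mutant minus cap was -1.16, and -0.44 among cells with 3000 to 5000 genes. Across the 5 comparisons its difference was within 1 pooled SD in each. Interstitium minus cap was -0.77 for Igf2bp2 and -0.82 for Igf2bp1, and within pool 2 it was -1.66 for Igf2bp2 and -1.43 for Igf2bp1. For Igf2bp1 it was -0.25 among cells with 3000 to 5000 genes and 0.10, the other direction, among cells with Top2a under 1 RPKM, and for Igf2bp2 -0.43 and -0.83 in these cells.

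**Figure D2:**
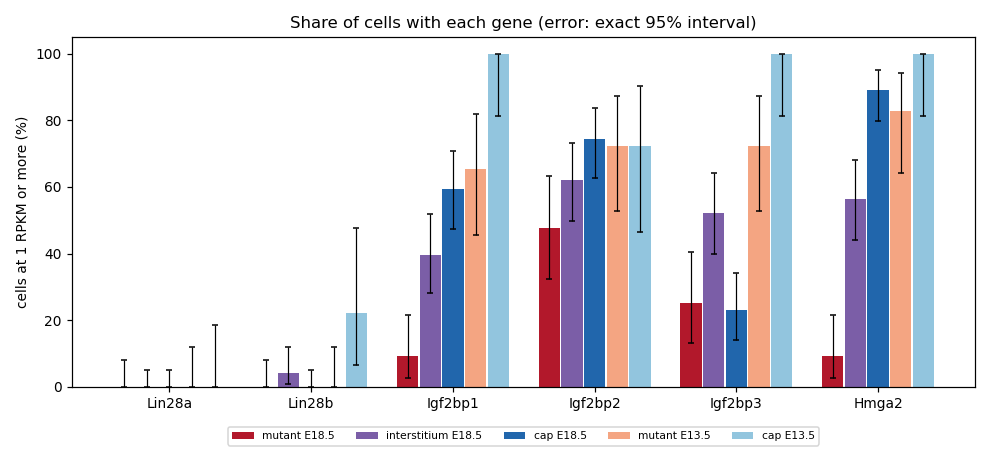
Share of cells with each gene at 1 RPKM or more, in percent, by group, with exact 95% intervals for counting error. Igf2bp1, Igf2bp3 and Hmga2 reach 100% in E13.5 cap cells, and Hmga2 is at 9.09% in E18.5 mutant cells.

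Hmga2 (chr10:120361275-120476935) had the highest mean RPKM-based level of the 6 in cap cells of both ages and in E13.5 mutant cells. It was detected in 66 of 74 E18.5 cap cells (89.2%, interval 79.8% to 95.2%) and in 18 of 18 E13.5 cap cells. Values ran from 0 to 603 RPKM with a median of 36.4 at E18.5, and from 26.7 to 223 RPKM with a median of 81.8 at E13.5. The mean was 4.77 ± 2.09 at E18.5 and 6.43 ± 0.88 at E13.5, a difference of -1.66 or -1.03 pooled SDs. The log2 ratio of group mean RPKM was -0.80. The difference stood at -1.36 among cells with Six2.

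The mutant cells differed from this. Hmga2 was detected in 4 of 44 E18.5 mutant cells (9.09%, interval 2.53% to 21.7%) and in 24 of 29 E13.5 mutant cells (82.8%, interval 64.2% to 94.2%). The 4 cells held 1.27, 1.76, 6.36 and 93.4 RPKM, and 34 of the 44 stood at 0. In E13.5 mutant cells 24 had 20 RPKM or more and the other 5 stood at 0, with no cell in between, and the highest had 289 RPKM. Those 5 cells had 1849, 2098, 3026, 4288 and 4724 genes detected, against a group median of 4560. Missed detection cannot be told apart from absence in them, because read depth is unknown. The mean was 0.35 ± 1.10 at E18.5 and 5.35 ± 2.63 at E13.5, a difference of -5.01 or -2.48 pooled SDs, rank 2 from the bottom of 10872 entries after Fam60a (-5.08).

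For Hmga2, E18.5 mutant minus cap was -4.42, -2.65 pooled SDs, rank 13 from the bottom of 11100 entries, and E13.5 mutant minus cap was -1.07, -0.55 pooled SDs. As log2 ratios of group mean RPKM, the E13.5 differences were -0.19 for Hmga2, -0.57 for Igf2bp1 and -0.55 for Igf2bp3. The age difference in mutant cells less that in cap cells was -3.35, rank 15 from the bottom of 10160 entries, whereas that of Igf2bp3 was 1.52 and Igf2bp1 -0.56. These comparisons share the cells of the 4 groups. The E18.5 difference of Hmga2 was -3.73 among cells with 3000 to 5000 genes (4 of 33 mutant and 22 of 26 cap cells detected) and -4.12 among cells with Top2a under 1 RPKM (4 of 42 mutant and 9 of 11 cap cells). With the 12 E13.5 mutant cells that lack Pax2 in place of all 29, mutant E18.5 minus E13.5 was -4.64.

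**Figure D3:**
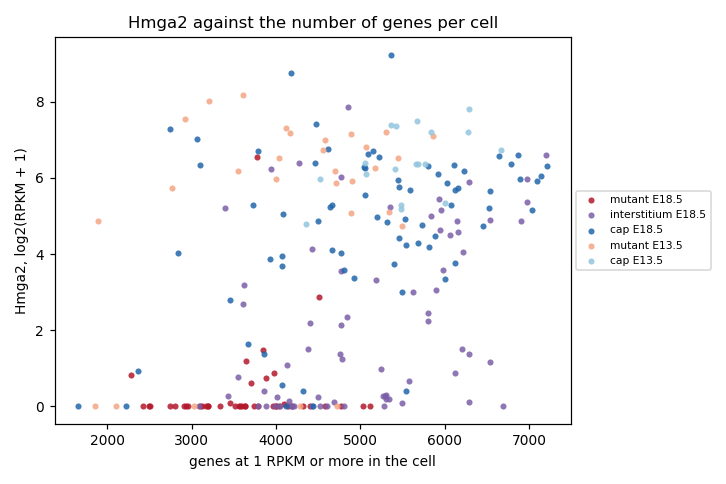
Hmga2 level, as log2(RPKM + 1), against the genes detected in each cell. Points are cells coloured by group. Between 3000 and 5000 genes, 4 of 33 E18.5 mutant cells hold 1 RPKM or more, against 22 of 26 E18.5 cap cells and 14 of 17 E13.5 mutant cells.

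In interstitium the Hmga2 mean lay between those of E18.5 mutant and E18.5 cap cells. Hmga2 was detected in 40 of 71 interstitial cells (56.3%, interval 44% to 68.1%), with a mean of 2.28 ± 2.30, 0 to 232 RPKM and a median of 1.59. The difference from E18.5 cap cells was -2.49 (-1.13 pooled SDs, rank 18 from the bottom of 11219 entries) and -2.15 in pool 2. Interstitial cells with Six2 had Hmga2 in 16 of 19 cells (mean 3.83 ± 2.25), and those without Six2 in 24 of 52 (mean 1.71 ± 2.05). In E18.5 cap cells Hmga2 was detected in 60 of 62 cells with Six2 and 6 of 12 without. In E13.5 mutant cells it was detected in 8 of 9 cells with Six2 and 16 of 20 without.

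The entries 1700006J14Rik and 9230105E05Rik lie within the Hmga2 span and were detected in 47 and 31 cells of the 5 groups, and the counting is not stated to use strand, so their reads and those of Hmga2 cannot be told apart. 1700006J14Rik was detected in 1 of 44 E18.5 mutant, 22 of 74 E18.5 cap, 4 of 29 E13.5 mutant and 4 of 18 E13.5 cap cells. Gm18010 within Igf2bp3 and Mir3063 within Igf2bp1 stood at 0.

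**Figure D4:**
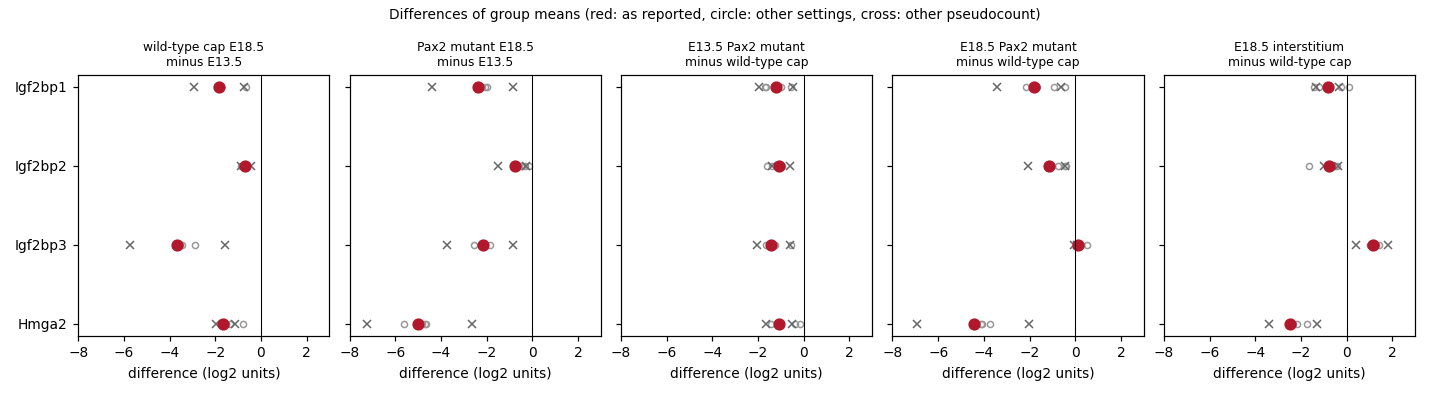
Difference of group means of log2(RPKM + 1) for Igf2bp1, Igf2bp2, Igf2bp3 and Hmga2 in the 5 comparisons, as reported (red), under other settings (circles) and with another pseudocount (crosses). The largest negative values are Hmga2 with age in mutant cells (-5.01) and between E18.5 mutant and cap cells (-4.42), and Igf2bp3 with age in cap cells (-3.66).

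Set against all entries, the counts read as follows. In cap cells with age, 3 of the 5 members compared (Igf2bp1, Igf2bp3 and Hmga2) were lower by 1 log2 unit or more, against 14.5% of entries, and none was higher, against 2.53%. As log2 ratios of group mean RPKM 2 were lower (Igf2bp3 and Lin28b), and with a pseudocount of 10 RPKM Igf2bp3 and Hmga2 were. In mutant cells with age, the same 3 of 4 compared were lower, against 11.5%, and none higher, against 6.69%. With a pseudocount of 10 RPKM Hmga2 alone was lower. In E13.5 mutant minus cap 4 of 5 were lower, against 27.7%, and 0 higher, against 1.43%. These 4 lay between -1.42 and -1.07, and none of them passed 1 log2 unit as a ratio of group mean RPKM or with a pseudocount of 10 RPKM. Among cells with Six2, Hmga2 was -0.39. In E18.5 mutant minus cap 3 of 4 were lower, against 23.2%, and 0 higher, against 4.51%. Of the 3, Hmga2 alone was lower by that much among cells with 3000 to 5000 genes, among cells with Top2a under 1 RPKM and with a pseudocount of 10 RPKM. In interstitium minus cap 1 of 4, Hmga2, was lower, against 2.7%, and 1 of 4, Igf2bp3, was higher, against 5.94%. Within pool 2, Igf2bp1 and Igf2bp2 were also lower, and with a pseudocount of 10 RPKM Igf2bp3 was not higher. The members were chosen with such results known, so the counts are a description.

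Cells with several of the genes were also counted. These counts depend on each gene's share of cells and on the genes detected per cell. In E13.5 cap cells Igf2bp1, Igf2bp3 and Hmga2 were in every cell, so the count with all 4 genes is that of Igf2bp2. Hmga2 without Igf2bp3 could only be 0 there. Whether the genes combine beyond their single shares was not tested. All 4 of Hmga2, Igf2bp1, Igf2bp2 and Igf2bp3 were detected together in 1 of 44 E18.5 mutant, 5 of 71 interstitial, 8 of 74 E18.5 cap, 10 of 29 E13.5 mutant and 13 of 18 E13.5 cap cells. None of the 4 was detected in 17 E18.5 mutant, 5 interstitial, 1 E18.5 cap, 0 E13.5 mutant and 0 E13.5 cap cells. Hmga2 without Igf2bp3 was found in 2 of 44 E18.5 mutant, 51 of 74 E18.5 cap and 0 of 18 E13.5 cap cells. Igf2bp3 without Hmga2 was found in 9 E18.5 mutant, 13 interstitial and 2 E18.5 cap cells. The median number of members detected per cell was 1 in E18.5 mutant, 2 in interstitial, 2.5 in E18.5 cap, 3 in E13.5 mutant and 4 in E13.5 cap cells.

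**Figure D5:**
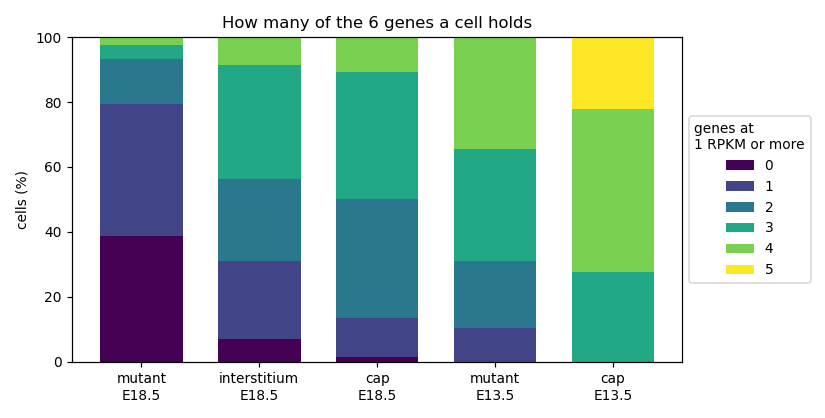
Share of cells, in percent, that hold 0 to 5 of the 6 genes at 1 RPKM or more, by group. In E18.5 mutant cells 38.6% hold none, and in E13.5 cap cells every cell holds 3 or more.

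Across all cells of the 5 groups the entries most like Hmga2 were Eya1 (Pearson r 0.59), Pax2 (0.59), Six2 (0.58), Cd24a (0.57) and Robo2 (0.57), of 9780 entries. Those of Igf2bp1 were Hmga2 (0.42), Mcm7 (0.40), Fabp5, Dctpp1 and Pax2 (0.39 each), those of Igf2bp2 Drg2 (0.37), Hmga1, Sox11, Cs and Vdac1, and those of Igf2bp3 Cdc34 (0.34), Rpph1, Asb4, Gas2 and Uty. Cells share group, pool and depth, so these are descriptions. Within groups, r between members lay between -0.56 (Lin28b with Igf2bp3, 18 E13.5 cap cells) and 0.42 (Igf2bp1 with Igf2bp2, 29 E13.5 mutant cells). For Igf2bp3 with Hmga2, r was 0.00 in interstitial, -0.07 in E18.5 cap, 0.33 in E13.5 mutant and -0.04 in E13.5 cap cells (71, 74, 29 and 18 cells).

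Other genes of the circuit were read from fixed lists. The 12 let-7 gene entries were mostly at 0: any was detected in 8 of 44 E18.5 mutant, 6 of 71 interstitial, 16 of 74 E18.5 cap, 3 of 29 E13.5 mutant and 0 of 18 E13.5 cap cells. These entries do not measure mature let-7, and Mirlet7g lies within Wdr82, itself detected in 118 cells. Mirlet7f-2 and Mir98 overlap Huwe1, Mirlet7a-2 overlaps D230004N17Rik and Mirlet7c-1 overlaps 2810055G20Rik, so their reads may come from these entries. Of 18 other genes listed as let-7 targets from general knowledge and not by seed matches, 16 were compared in cap cells with age. Of these 16, 7 stood lower by at least 1 log2 unit, against 14.5% of all entries, and 0 higher, against 2.53%. Their median difference was -0.42, against -0.21 for all entries. Of those named below, the searched UTRs of Ccnd1 and Ccnd2 held 0 matches to CTACCTC, and no UTR of Tgfbr1 was searched. Cdc34, a ubiquitin-conjugating enzyme, was 0.59 at E18.5 and 4.36 at E13.5 (-3.77), and the cyclin Ccnd2 2.37 at E18.5 and 5.63 at E13.5 (-3.25). Trim71, Tgfbr1, Ccnd1 and Cdc25a differed by -1.43, -1.41, -1.16 and -1.02. In mutant cells 3 of 15 compared were lower, against 11.5% of all entries, namely Plagl2 (-1.29), Cdc34 (-1.14) and Ccnd2 (-1.13). The median there was -0.61 against -0.16. With so few genes, these counts are not read as a result about the list.

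Of 10 genes for microRNA processing and let-7 turnover, 3 were lower with age in cap cells (Drosha -1.21, Tarbp2 -1.51 and Xpo5 -1.03), against 14.5% of all entries. In mutant cells 2 of 10, Dgcr8 (-1.78) and Tarbp2 (-2.05), were lower, against 11.5%, and 1, Zcchc6 (1.33), was higher, against 6.69%. With 10 genes, these counts are not read as a result about the list.

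Of messages that IGF2BP proteins are known to bind, Igf2 was lower with age in cap cells (4.05 at E18.5 and 6.26 at E13.5, -2.21) and higher in mutant cells (7.0 at E18.5 and 4.83 at E13.5, 2.17). The H19 age difference was -2.13 in cap and 1.37 in mutant cells. Of the other 3 messages listed, Actb, Myc and Cd44 differed by -0.17, -0.51 and 0.48 in cap cells, and by 1.71, -0.29 and 0.13 in mutant cells. All 8 cell-cycle genes stood at least 1 log2 unit lower at E18.5 in cap and in mutant cells, against 14.5% and 11.5% of all entries. Their mean scores were 0.76 in E18.5 mutant, 4.24 in E18.5 cap, 3.25 in E13.5 mutant and 6.14 in E13.5 cap cells. Whether the members' levels follow cycling was not tested beyond the cells with Top2a under 1 RPKM.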

How the data were processed

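The authors deposited 1 table of RPKM for 237 single cells, made with TopHat on mm10 per the submitters' processing notes. The TopHat version, gene models and counting rule are not given in the sources used here. Read depth per cell is unknown: ratios of low values fell on no steps (median 9.56% in the 3 fullest bins over 85 pairs of cells), so genes at 1 RPKM or more stood in for it. The highest correlation between 2 cells was 0.81. A single cell with conflicting labels entered no comparison, and no doublet caller was used.

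Values were taken as log2(RPKM + 1), with a pseudocount of 1 RPKM, and averaged over cells. Entries at 1 RPKM or more in 10% of either group's cells were compared, and a difference of 1 log2 unit or more was counted. The code was tested on simulated data. Named genes are the 6 members, genes of the lists, and the 5 entries most correlated with each member found in 10% of cells, without Gm and Rik models. Ddx3y, Meis1, Fam60a and the overlapping entries were named after their values were seen. Some genes of the lists are not reported here. Members and lists were chosen with earlier results of these data known. Python 3.11.15, pandas 2.3.3, numpy 2.4.6, scipy 1.17.1 and matplotlib 3.10.9 were used.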

Additional observations from a re-analysis of the deposited data

How the results depend on the processing

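No paired analysis was possible because cells carry no label that links them across groups. Of 172 recomputed member differences, 162 moved by less than the SD between cells and none of those past 1 log2 unit changed sign, although counts of members past that size changed as given above. With a pseudocount of 0.1 RPKM, Igf2bp3 in cap cells with age was -5.74, Igf2bp1 in mutant cells with age -4.39, Hmga2 there -7.25, Lin28b in E18.5 mutant minus cap -0.0062 and Hmga2 there -6.94. With 10 RPKM these were -1.56 for Igf2bp3, -2.63 for Hmga2 with age in mutant cells and -2.03 for Hmga2 in E18.5 mutant minus cap. As a log2 ratio of mean RPKM, Lin28b was -2.05 in cap cells with age and -2.05 in E13.5 mutant minus cap. The cause was not tested. All 20 counts of entries stayed within 1.5 times. Without the filter on low values the 10 counts equalled the main ones, as entries below the filter added none past 1 log2 unit. That setting therefore shows little. Of 60 shares, 19 left their interval, 11 at above 0 and 8 at 5 RPKM. Restricting to Pax2-negative E13.5 mutant cells or to cells with Top2a under 1 RPKM was chosen after seeing the data. Comparisons within 3000 to 5000 genes or Top2a under 1 RPKM were not run for E13.5 cap cells, which had too few.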

Other observations

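One wild-type E13.5 cell whose source name says cap mesenchyme and whose cell type label says interstitium held 97.4 RPKM of Hmga2, 29.2 of Igf2bp1, 39.9 of Igf2bp2 and 18 of Igf2bp3, with Lin28a and Lin28b at 0. It held 143 RPKM of Six2, 24.7 of Pax2 and 0 of Pdgfra, with 6570 genes detected.

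The cells that went against their group in Hmga2 were looked at singly. Of the 4 E18.5 mutant cells with Hmga2, the one at 1.76 RPKM also held 235 RPKM of Eya1 and 38.6 of Igf2bp1, and the one at 93.4 RPKM held 50.7 of Pdgfra and none of Igf2bp1. All 4 held Col1a1, at 73.7 to 219 RPKM. Of the 5 E13.5 mutant cells without Hmga2, 3 held Pax2, at 5.58, 8.02 and 18.3 RPKM.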
